A study of Rattus norvegicus with 18 samples.

Results

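Genes of the glucocorticoid response were followed in the cerebral cortex of rats after subarachnoid hemorrhage (SAH). They were chosen by name as rows of the count table, and 10 genes were asked for: the receptors Nr3c1 and Nr3c2, the chaperone Fkbp5, the enzyme Hsd11b1, and the response genes Tsc22d3, Sgk1, Zbtb16, Errfi1, Klf9 and Pdk4. Of these, 9 were measured under their symbol among 30735 genes, and all 9 were among the 18444 genes tested. Nr3c1, the glucocorticoid receptor itself, was not analysed here, so the receptor side of the results rests on Nr3c2 alone.

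The libraries came from 18 adult Sprague Dawley rats, 1 rat per library, and formed a sham group, an SAH 1d group and an SAH 7d group of 6 rats each. In the SAH 1d and SAH 7d groups a filament passed up the internal carotid artery pierced a vessel at the base of the brain, and cortex was taken 1 or 7 days later. The sham rats had the same neck surgery under pentobarbital without the piercing, so anesthesia and surgery, which themselves engage the stress axis, were shared by all groups. The study describes the tissue as the whole cortex of the operated side, whereas the deposited descriptions name both sides. No sex was stated, and hormone levels were not analysed here. The time from surgery to sampling is not given for the sham rats, so it is not known to match either SAH group. All 3 groups were operated on, so they give no level without surgical stress.

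Glucocorticoids are the adrenal steroids of the stress response, and in the rat the main one is corticosterone. The steroid enters the cell and binds a receptor that waits in the cytoplasm in a complex with Hsp90 and co-chaperones. The receptor then moves to the nucleus and acts on genes that carry its response element, a near-palindrome built from the hexamer TGTTCT, or acts through other DNA-bound factors. The glucocorticoid receptor is present in most brain cells and the mineralocorticoid receptor, which binds corticosterone with higher affinity, mainly in neurons. Fkbp5 is itself induced by the receptor and lowers its affinity for the hormone, which closes a short feedback loop.

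Total counts per library ranged from 27270026 to 38271014. Of the marker genes used to check the tissue, neuronal genes were detected in every library, and their summed level had a median of 3476 FPKM (fragments scaled by transcript length and sequencing depth, as deposited) in the sham group. The lowest neuronal sum of the sham group was 2363 FPKM, in sham-1. That library also had the highest sham sums of astrocyte, oligodendrocyte, microglia, endothelial and mural cell markers. The libraries SAH 1d-3 and SAH 7d-5 stood apart in the monocyte and macrophage markers. SAH 7d-5 had the lowest neuronal sum, 922 FPKM against a median of 3235 in its group, and the highest sum of the 3 measured monocyte and macrophage markers, 6646 against a median of 80.6. SAH 1d-3 had the lowest neuronal sum of the SAH 1d group, 1919 against a median of 2301, with 466 FPKM for the monocyte and macrophage markers against a median of 80.2. All 8 neuronal markers fell at SAH 1d (adjusted p under 0.05), beside 10.5% of all genes called lower. Their log2 fold changes lay between -1.13 and -0.33. In tissue of this kind, fewer cells of a type and less RNA per cell cannot be told apart.

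Regulatory sequence just ahead of the transcription start is shown for 5 of the genes that the comparisons turn on: Klf9, Fkbp5 and Tsc22d3, which had the smallest adjusted p at SAH 1d or between the SAH times, and Sgk1 and Errfi1, which had the smallest at SAH 7d against sham. RefSeq windows on the GRCr8 assembly, from 250 bases before to 50 after a start, were found for 6 of the 9 genes, with 10 starts in all. The 150 bases before a start are printed 5′ to 3′ on the gene's strand, and capitals mark TATAAA and CCAAT on either strand, the usual core of the TATA and CCAAT boxes. The Fkbp5 stretch printed holds neither.
Klf9 (chr1:230126496-230126645, plus strand): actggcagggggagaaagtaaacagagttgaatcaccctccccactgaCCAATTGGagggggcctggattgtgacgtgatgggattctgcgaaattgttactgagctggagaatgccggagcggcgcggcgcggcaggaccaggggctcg
Fkbp5 (chr20:6543556-6543705, minus strand): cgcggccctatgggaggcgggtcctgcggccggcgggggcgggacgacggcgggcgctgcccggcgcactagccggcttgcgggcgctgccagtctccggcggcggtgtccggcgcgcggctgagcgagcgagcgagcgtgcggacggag
Tsc22d3, the third of 3 starts (chrX:109010035-109010184, minus strand): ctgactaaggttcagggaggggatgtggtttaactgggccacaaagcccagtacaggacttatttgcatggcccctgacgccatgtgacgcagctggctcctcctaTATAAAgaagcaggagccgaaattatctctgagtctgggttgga
Sgk1, the third of 3 starts (chr1:24804832-24804981, minus strand): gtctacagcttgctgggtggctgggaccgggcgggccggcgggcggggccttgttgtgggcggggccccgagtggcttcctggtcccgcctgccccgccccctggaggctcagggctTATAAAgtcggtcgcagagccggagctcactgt
Errfi1 (chr5:166606691-166606840, plus strand): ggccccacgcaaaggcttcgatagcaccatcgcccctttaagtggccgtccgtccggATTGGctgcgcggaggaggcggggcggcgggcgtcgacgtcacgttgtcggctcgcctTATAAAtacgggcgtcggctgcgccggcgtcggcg

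TATAAA occurred in 4 of the 10 windows, from Tsc22d3, Sgk1 and Errfi1, against 14.2% of the 33365 RefSeq windows. It lies 44, 33 and 35 bases ahead of the starts printed for these genes. CCAAT occurred in 5 of the 10 windows, against 37.5% of all windows, and in Klf9 a copy on each strand overlaps the other. The receptor's hexamer TGTTCT was searched on both strands and occurred in 0 of the 10 windows, against 20.6% of all windows. The full element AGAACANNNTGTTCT, which contains it, occurred in 0 of the 10 and in 5 of all windows. This says only that these letters are not within the windows, since receptor sites are often far from the start.

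Compared per transcript length, the genes formed an upper set and a lower set in the sham group. Hsd11b1 had the highest level, 46.7 ± 7.82 FPKM (SD, n = 6). Tsc22d3 followed with 39.2 ± 7.59, Sgk1 with 25.9 ± 12.2 and Klf9 with 20.8 ± 2.40. Errfi1 had 15.5 ± 3.27 FPKM and Fkbp5 had 14.0 ± 3.55. The lower set held Nr3c2 with 4.51 ± 0.540 FPKM, Zbtb16 with 3.11 ± 1.43 and Pdk4 with 1.88 ± 1.14. Neighbours in this order overlapped between libraries, except that the lowest Fkbp5 value, 10.7 FPKM, was above the highest Nr3c2 value, 5.19. At SAH 7d the order opened with Sgk1, at 66.6 ± 32.0 FPKM, and its range of 37.3 to 126 overlapped that of Tsc22d3, 33.8 to 72.7.

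**Figure D1:**
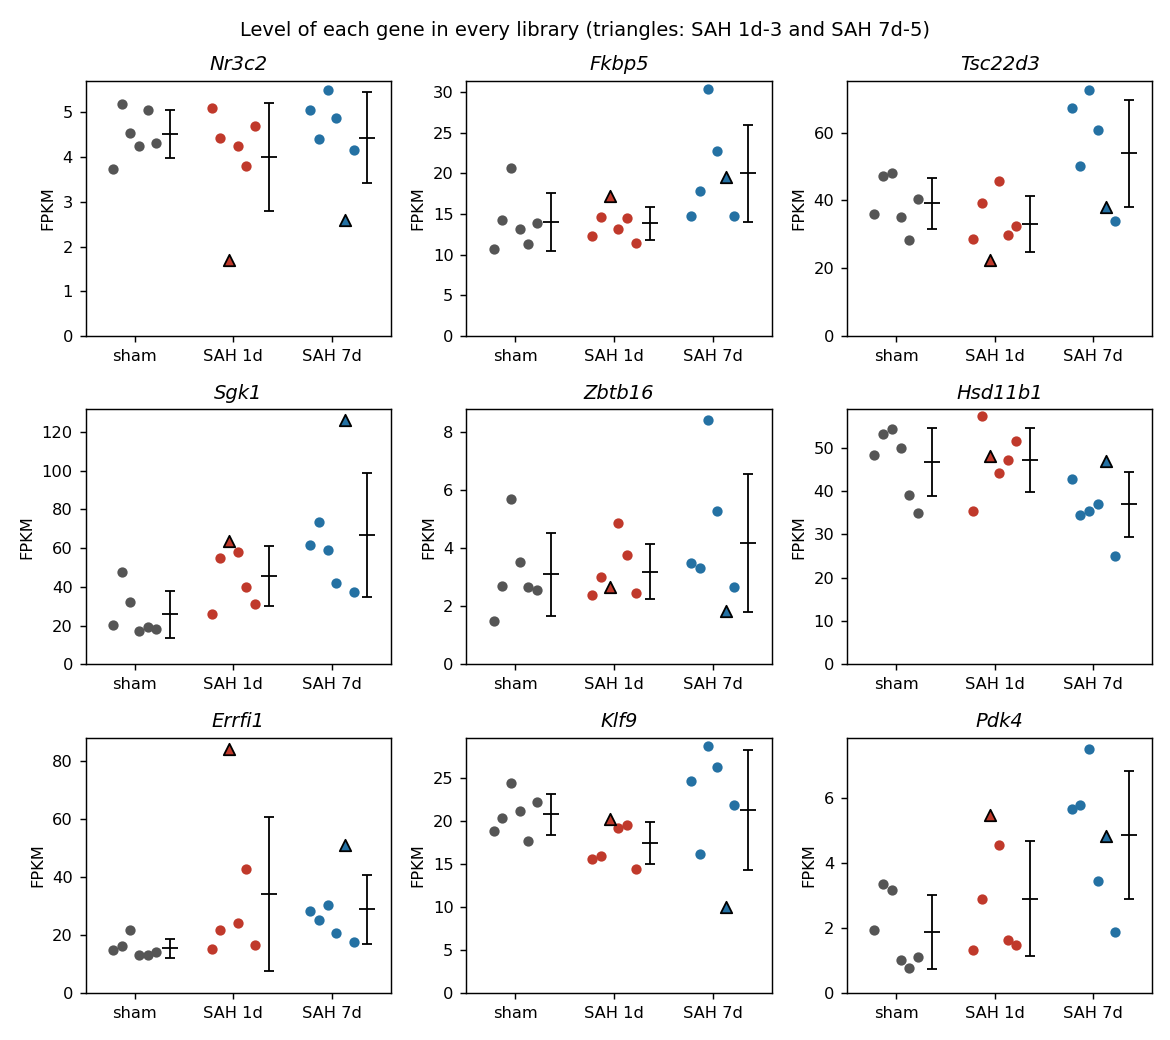
Level of each of the 9 measured genes in FPKM (vertical axis, from 0) in every library, by group (horizontal axis, sham, SAH 1d and SAH 7d, n = 6 each). Points are libraries, triangles are SAH 1d-3 and SAH 7d-5, and the bars give the mean and SD; the highest Sgk1 value, 126 FPKM, is that of SAH 7d-5.

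The first comparison asked what differs 1 day after SAH. Only Klf9, a Krüppel-like transcription factor that glucocorticoids and thyroid hormone induce in neurons, passed the test, and it fell. Sgk1 and Errfi1 had higher means at SAH 1d but did not pass the test, and neither did Tsc22d3 and Nr3c2, whose means were lower. Thus 1 of 9 genes was called at an adjusted p under 0.05 (edgeR quasi-likelihood test, Benjamini-Hochberg adjustment over all tested genes), beside 25.4% of all genes and 10.5% called lower. The median log2 fold change of the 9 genes was -0.10, and that of all tested genes 0.01.

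Klf9 (ENSRNOG00000014215) lay between 46.0 and 66.8 CPM (counts scaled to library size after TMM) in the sham libraries, with a median of 55.3. In the SAH 1d libraries it lay between 35.3 and 51.5, with a median of 43.6. All 6 SAH 1d libraries were under the sham mean and 3 were under every sham library, so the groups overlapped. This gave a log2 fold change of -0.36 ± 0.12 (SE, n = 6 and 6, adjusted p = 0.0373 by edgeR). The call is close to the threshold. It was lost when any of sham-2, sham-3, sham-4, sham-6, SAH 1d-1, SAH 1d-2 or SAH 1d-6 was left out (adjusted p from 0.0560 to 0.0838), and it was kept without SAH 1d-3, at -0.41 ± 0.11 and an adjusted p of 0.0141 by edgeR. It held in 7 of the 12 settings beyond single libraries left out, where the adjusted p ranged from 0.00312 to 0.209. These 7 include the fit without SAH 7d-5 and SAH 1d-3, which in this comparison is the fit without SAH 1d-3. The neuronal markers fell in the same libraries, and their part in the Klf9 result was not tested.

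Sgk1 (ENSRNOG00000011815) encodes a kinase that glucocorticoids and mineralocorticoids induce and that acts on ion channels and transporters. It lay between 50.6 and 134 CPM in the sham group, with a median of 59.9, and between 68.3 and 165 at SAH 1d, with a median of 123. Sham-2 was the highest sham library and sham-3, at 94.9, the next, and 5 of 6 SAH 1d libraries were above the sham mean. Its log2 fold change was 0.65 ± 0.27 (SE, adjusted p = 0.0960 by edgeR). Without sham-2 it was 0.89, with an adjusted p of 0.0227 by edgeR, and over all settings with a library left out the adjusted p ran from 0.0227 to 0.177. On the FPKM scale, limma gave 0.82 with an adjusted p of 0.0400, on a scale where the median of all tested genes lay at 0.08, and at 0.11 with the smaller pseudocount.

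Errfi1 (ENSRNOG00000058186) encodes a feedback inhibitor of the EGF receptor. Its sham libraries lay between 40.5 and 70.4 CPM, with a median of 47.7, and the SAH 1d libraries between 44.5 and 254, with a median of 67.6. The value of 254 was that of SAH 1d-3 and the next was 130 in SAH 1d-5, and the other 4 libraries were at 72.6 or below. Its log2 fold change was 1.04 ± 0.38 (SE, adjusted p = 0.0624 by edgeR). Without SAH 1d-3 it was 0.52 ± 0.25, with an adjusted p of 0.132 by edgeR, so 1 library carried much of the difference. Leaving out SAH 1d-1 or SAH 1d-6 brought the adjusted p by edgeR to 0.0367 and 0.0397, and the DESeq2 Wald test gave 0.0203. That test called 30.6% of all genes.

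Tsc22d3 (ENSRNOG00000056135), known as GILZ, is a leucine zipper protein through which glucocorticoids restrain inflammation. It lay between 56.6 and 101 CPM in the sham group and between 44.2 and 89.5 at SAH 1d, with medians of 82.1 and 60.2. Of the SAH 1d libraries, 5 were under the sham mean and 2 under every sham library. Between the groups the log2 fold change was -0.36 ± 0.17 (SE, unadjusted p = 0.0490, adjusted p = 0.127 by edgeR). The highest SAH 1d value was that of SAH 1d-4, and without it the log2 fold change was -0.48 with an adjusted p of 0.0415 by edgeR.

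The mineralocorticoid receptor gene Nr3c2 (ENSRNOG00000034007) lay between 11.2 and 14.3 CPM in the sham libraries, with a median of 12.7. At SAH 1d it lay between 4.51 and 13.2, with a median of 11.3. The value of 4.51 was that of SAH 1d-3, and the other 5 libraries were at 10.2 or above. The difference on the log2 scale was -0.29 ± 0.20 (SE, adjusted p = 0.297 by edgeR), and without SAH 1d-3 it was -0.14 ± 0.10. SAH 1d-3 also had the lowest neuronal sum of its group, and the part of this in the Nr3c2 value was not tested.

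The other 4 genes gave intervals that included 0. For Fkbp5 (ENSRNOG00000022523) the log2 fold change was -0.12, with a 95% interval from -0.46 to 0.21. For Hsd11b1 (ENSRNOG00000005861), the reductase that regenerates active corticosterone inside cells, it was -0.10, from -0.38 to 0.18. Zbtb16 (ENSRNOG00000029980), a zinc finger repressor also called PLZF, gave -0.07, from -0.67 to 0.53. Pdk4 (ENSRNOG00000009565), a kinase that turns off pyruvate dehydrogenase and so spares glucose, gave 0.51, from -0.48 to 1.49. These intervals leave room for changes of the size seen in Klf9. The signs for Fkbp5, Zbtb16 and Hsd11b1 turned on the FPKM scale, so no direction is given for them.

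Genes around the receptors showed which parts of the pathway differed at SAH 1d. All 8 tested receptor chaperones rose, beside 14.9% of all genes called higher. Stip1, which hands client proteins from Hsp70 to Hsp90, rose by 1.15 ± 0.12 on the log2 scale (SE, adjusted p = 6.67e-05 by edgeR). Dnajb1, an Hsp70 partner, rose by 1.04 ± 0.13. Fkbp4, the immunophilin that competes with Fkbp5 for the receptor complex, rose by 1.00 ± 0.12, and the heat shock protein gene Hsp90aa1 rose by 0.90 ± 0.08. In each of these 4 genes the SAH 1d libraries were all above the sham libraries, beside 7.89% of all genes. Most of these genes also belong to the general heat shock response. All 8 remained called higher without SAH 7d-5 and SAH 1d-3.

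Of 24 other glucocorticoid response genes, 13 rose and 0 fell, beside 14.9% of all genes called higher and 10.5% called lower. Of these 13, 12 rose at least 2-fold, beside 6.64% of all genes called at least 2-fold in either direction. The largest log2 fold changes were those of Il1r2, the decoy receptor for interleukin 1, at 5.24 ± 1.28 (SE), and of the transcription factor gene Cebpd at 3.49 ± 0.31. The metallothionein gene Mt1 rose by 2.59 ± 0.51 and the kinase gene Map3k6 by 2.59 ± 0.66. Il1r2 and Map3k6 overlapped between the groups, and Cebpd and Mt1 did not. The log2 fold changes of these 4 genes were smaller without SAH 1d-3. There, Il1r2 gave 3.03 ± 0.80 and stood below Cebpd, at 3.30 ± 0.28, while Map3k6 gave 1.79 ± 0.51 and Mt1 2.12 ± 0.43, and all 4 remained called. In that fit 14 of the 24 rose, beside 15.4% of all genes called higher. Some members of this list, such as Il1r2, Cebpd and Cebpb, are induced by inflammation as well, and its part in these values was not tested. The 11 that did not pass the test had log2 fold changes from -0.53 for Fam107a to 0.56 for Dusp1, with Arl4d at 0.00 and Arrdc2 at 0.02. Markers of other cells rose in the same comparison, beside 14.9% of all genes called higher. They were 2 of 3 for neutrophils, 2 of 3 for monocytes and macrophages and 2 of 4 for the choroid plexus. Of 5 astrocyte markers 1 rose and 1 fell, and of 5 microglia markers 1 fell. Endothelial markers rose in 1 of 4 and mural cell markers in 1 of 5. No marker of oligodendrocytes, meningeal fibroblasts, T cells or red cells was called. The summed neutrophil markers had a median of 4.82 FPKM at SAH 1d, with 77.7 in SAH 1d-3, against 0.612 to 4.06 in the sham group. The monocyte and macrophage sum lay between 62.6 and 466 FPKM, the highest in SAH 1d-3, against 33.8 to 54.0. The choroid plexus sum lay between 2.23 and 1410 FPKM, the highest in SAH 1d-6, against 1.84 to 81.9. Their part in the list's counts was not tested.

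Of 5 genes of steroid handling 1 rose, beside 14.9% of all genes called higher. It was Tspo, the mitochondrial translocator protein that microglia and other reactive cells also make, at 3.19 ± 0.34. None of the 5 genes of the corticotropin axis passed, where Crh gave -0.34 and Pomc -0.22, with adjusted p of 0.636 and 0.562 by edgeR. In the fit without SAH 7d-5 and SAH 1d-3, 2 of these 5 were called lower, beside 13% of all genes. Crh gave -1.18 ± 0.25 there, and Crhbp, the binding protein of its hormone, gave -0.78 ± 0.20, against 0.36 with all libraries. Among 12 paralogs 3 were called, beside 25.4% of all genes. The Tsc22d3 relatives Tsc22d4 and Tsc22d2 rose by 0.49 ± 0.14 and 0.42 ± 0.14 and Tsc22d1 fell, at -0.23 ± 0.08 (adjusted p = 0.04999 by edgeR). Tsc22d3 itself had an estimate below 0.

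The second comparison asked what remains or appears 7 days after SAH. None of the 9 genes passed the test, beside 0% of all genes. edgeR called 0 of 18444 genes, with 2842, 15.4%, at an unadjusted p under 0.05, and the DESeq2 Wald test called 459, 2.56%. The estimates of Sgk1, Pdk4, Errfi1, Fkbp5 and Tsc22d3 were above those of sham and that of Hsd11b1 was below. The median log2 fold change of the 9 genes was 0.41, and that of all tested genes 0.00.

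Sgk1 lay between 106 and 324 CPM at SAH 7d, with a median of 164. All 6 libraries were above the sham mean of 76.0 and 4 were above every sham library. Against sham the log2 fold change was 1.24 ± 0.31 (SE, unadjusted p = 0.00156, adjusted p = 0.214 by edgeR). The highest library, SAH 7d-5, was also the one with the high macrophage markers, and without it and SAH 1d-3 the log2 fold change was 0.99 ± 0.25, with an adjusted p of 0.136 by edgeR. The DESeq2 Wald test gave an adjusted p of 0.00811, and over the other settings it reached 0.529.

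Errfi1 lay between 55.6 and 155 CPM at SAH 7d, with a median of 82.9, and again 6 of 6 libraries were above the sham mean and 4 above every sham library. Against sham the log2 fold change was 0.84 ± 0.23 (SE, unadjusted p = 0.00287, adjusted p = 0.214 by edgeR). SAH 7d-5 was the highest, and without it 0.62 ± 0.16 remained, with an adjusted p of 0.139 by edgeR. The DESeq2 Wald test gave an adjusted p of 0.0270.

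Pdk4 was the least abundant of the genes and had the largest estimate. Its sham libraries lay between 1.26 and 5.53 CPM, with a median of 2.67, and the SAH 7d libraries between 3.17 and 12.2, with a median of 8.50. At SAH 7d, 5 of 6 libraries were above every sham library, and SAH 7d-6 was the exception. This was a log2 fold change of 1.30 ± 0.41 (SE, unadjusted p = 0.00799, adjusted p = 0.224 by edgeR). It was 1.32 ± 0.42 without SAH 7d-5, so the estimate was as large without that library.

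Fkbp5 lay between 39.5 and 76.1 CPM in the sham group, with a median of 49.1, and between 51.9 and 106 at SAH 7d, with a median of 65.2. All 6 SAH 7d libraries were above the sham mean of 51.1 and 2 were above every sham library, since sham-3 was far above the other sham libraries. The log2 fold change was 0.46 ± 0.20 (SE, unadjusted p = 0.0357, adjusted p = 0.297 by edgeR). Tsc22d3 gave 0.41 ± 0.20, with 3 of 6 libraries above every sham library and SAH 7d-5 and SAH 7d-6 below the sham mean (adjusted p = 0.337 by edgeR).

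Hsd11b1 lay between 58.2 and 90.3 CPM in the sham group, with a median of 82.7, and between 40.8 and 73.1 at SAH 7d, with a median of 57.5. All 6 SAH 7d libraries were under the sham mean of 76.8 and 3 were under every sham library. The log2 fold change was -0.38 ± 0.15 (SE, unadjusted p = 0.0230, adjusted p = 0.274 by edgeR), and it was -0.45 ± 0.14 without SAH 7d-5. Zbtb16 gave 0.38, with a 95% interval from -0.42 to 1.18. For Nr3c2 and Klf9 the estimates were -0.07 and -0.01, both turned sign without SAH 7d-5, and the intervals ran from -0.41 to 0.28 and from -0.47 to 0.45. SAH 7d-5 was the lowest library of its group for both genes, with 6.99 and 25.6 CPM, and it also had the lowest neuronal sum, whose part in these values was not tested.

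**Figure D2:**
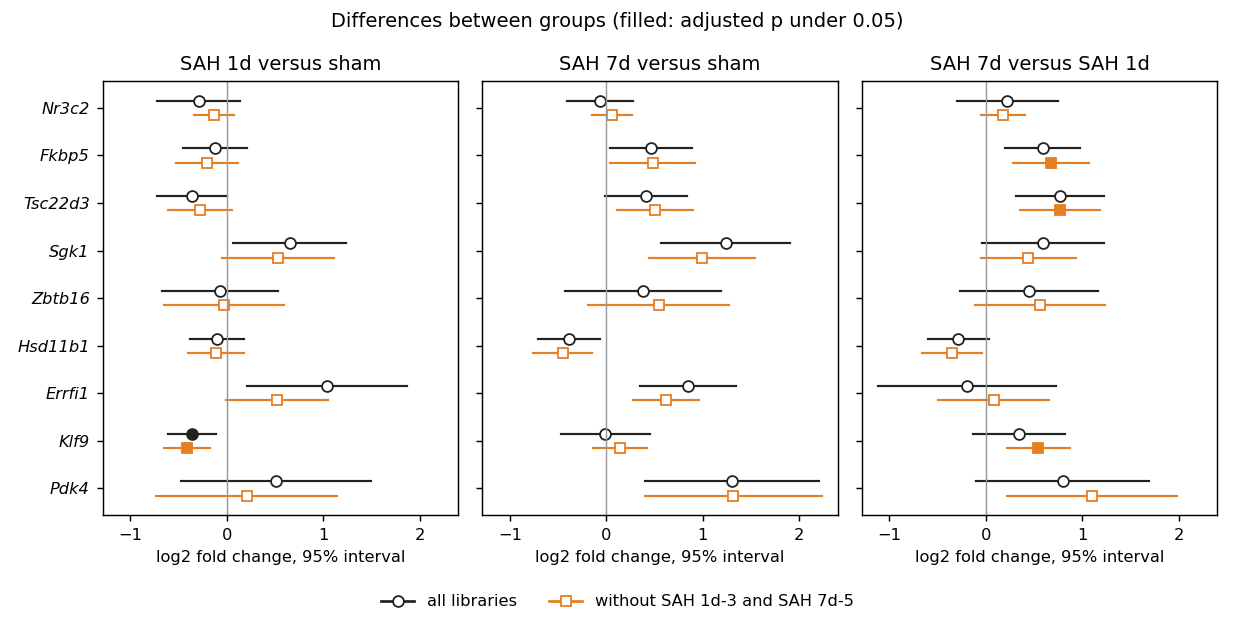
Log2 fold change (horizontal axis) of each of the 9 genes with its 95% interval in the 3 comparisons, with all 12 libraries of a comparison (circles) and without SAH 7d-5 and SAH 1d-3 (squares). Filled symbols have an adjusted p under 0.05: Klf9 at SAH 1d in both fits, and Fkbp5, Tsc22d3 and Klf9 between the SAH times without the 2 libraries.

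The pathway around the receptors gave no call at SAH 7d against sham in any of 5 lists, beside 0% of all genes. The chaperones had log2 fold changes between -0.12 and 0.23, with a median of 0.10. The 24 other response genes had a median of 0.84 and a range from -0.42 for Fam107a to 2.69 for Anxa1. Without SAH 7d-5 the median was 0.62, the range ran from -1.47 for Il1r2 to 1.40 for Cebpd, and Anxa1 gave 0.74. Tspo was at 2.77 ± 0.73 (SE, adjusted p = 0.214 by edgeR).

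The third comparison set the SAH times against each other, and it shares its libraries with the first and the second. None of the 9 genes passed with all 12 libraries, beside 1.37% of all genes and 0.282% called higher. Tsc22d3 and Fkbp5 had the smallest p, both with higher values at SAH 7d. Without SAH 7d-5 and SAH 1d-3, Tsc22d3, Fkbp5 and Klf9 rose from SAH 1d to SAH 7d. These are 3 of 9 genes, beside 13.6% of all genes and 6.13% called higher in the same fit. The median log2 fold change of the 9 genes was 0.45 with all libraries, and that of all tested genes 0.03.

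Tsc22d3 lay between 44.2 and 89.5 CPM at SAH 1d and between 69.5 and 145 at SAH 7d, with medians of 60.2 and 112. All 6 SAH 7d libraries were above the SAH 1d mean and 4 were above every SAH 1d library. From SAH 1d to SAH 7d the log2 fold change was 0.77 ± 0.21 (SE, unadjusted p = 0.00307, adjusted p = 0.102 by edgeR). Both libraries that stood apart left out, it was 0.77 ± 0.19, with an adjusted p of 0.0216 by edgeR, and the groups still overlapped. Leaving out SAH 7d-5 alone gave 0.85 with an adjusted p of 0.0263 by edgeR. Of the 12 settings beyond single libraries left out, 4 called it, among them the fit without both libraries and the DESeq2 Wald test. The DESeq2 Wald test called 5.7% of all genes. Over these 12 settings the adjusted p of Tsc22d3 ranged from 0.0160 to 0.279.

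Fkbp5 lay between 37.9 and 59.0 CPM at SAH 1d, with a median of 46.2, against 51.9 to 106 at SAH 7d. All 6 SAH 7d libraries were above the SAH 1d mean of 46.7 and 4 were above every SAH 1d library. On the log2 scale the difference was 0.59 ± 0.18 (SE, unadjusted p = 0.00606, adjusted p = 0.138 by edgeR). Without SAH 7d-5 and SAH 1d-3 it was 0.67 ± 0.18, with an adjusted p of 0.0303 by edgeR. The highest SAH 1d value was then 50.2 CPM and the lowest SAH 7d value 51.9, so the groups no longer overlapped, which held for 5.06% of all genes in that direction. Of the 12 settings beyond single libraries left out, 3 called Fkbp5, the fit without both libraries among them. The adjusted p ranged there from 0.0241 to 0.231. With a single library left out, Fkbp5 was called in 0 of 12 fits, with an adjusted p from 0.0705 to 0.240 by edgeR.

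Klf9 lay between 25.6 and 74.5 CPM at SAH 7d, with a median of 61.4 against 43.6 at SAH 1d. In 4 of 6 SAH 7d libraries it was above every SAH 1d library, in SAH 7d-2 it was within their range, and in SAH 7d-5 it was under all of them. The log2 fold change was 0.34 ± 0.22 (SE, adjusted p = 0.506 by edgeR). Leaving out both libraries, it was 0.54 ± 0.15, with an adjusted p of 0.0319 by edgeR. Leaving out SAH 7d-5 alone gave 0.49 ± 0.15, with an adjusted p of 0.0662 by edgeR, and limma voom with sample weights called it with all libraries (adjusted p = 0.0153). SAH 7d-5 is the library with 922 FPKM of neuronal markers, and their part in the Klf9 values was not tested.

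For Sgk1 the log2 fold change from SAH 1d to SAH 7d was 0.59 ± 0.29 (SE), with a 95% interval from -0.05 to 1.22. For Pdk4 it was 0.79 ± 0.42, from -0.11 to 1.69, and without SAH 7d-5 and SAH 1d-3 it was 1.10 ± 0.41 (adjusted p = 0.0971 by edgeR). For Hsd11b1 it was -0.29 ± 0.15, from -0.61 to 0.03. Zbtb16 gave 0.45 ± 0.33 and Nr3c2 0.22 ± 0.24. Errfi1 gave -0.20 ± 0.43, and it changed sign without SAH 1d-3. None of these 6 genes passed.

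**Figure D3:**
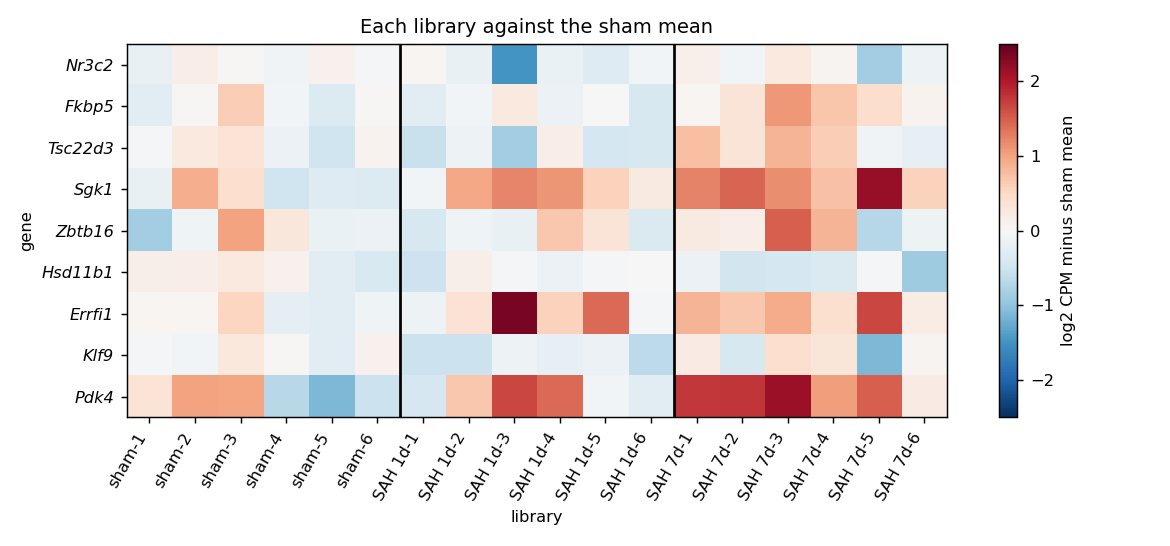
Log2 CPM of each of the 9 genes (rows) in each of the 18 libraries (columns), as the difference from the mean of the sham libraries (colour, red higher and blue lower). Nr3c2 is lowest in SAH 1d-3 and SAH 7d-5, Errfi1 is highest in SAH 1d-3, and Sgk1 is above the sham mean in all 6 SAH 7d libraries.

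The chaperones went the other way between the SAH times. Of 8, 4 fell from SAH 1d to SAH 7d, beside 1.08% of all genes called lower. Stip1 gave a log2 fold change of -1.07 ± 0.14 (SE, adjusted p = 0.00311 by edgeR) and Hsp90aa1 gave -1.02 ± 0.13 (adjusted p = 0.00238 by edgeR). Fkbp4 gave -0.95 ± 0.13 and Dnajb1 -0.88 ± 0.16. With both libraries left out, 7 of 8 fell, beside 7.49% of all genes called lower in that fit. None of the 24 other response genes passed with all libraries, and 6 fell without those 2 libraries, in the same fit: Cebpd, Cebpb, Mt1, Mt2A, Angptl4 and Il1r2, which are named after their values were seen. These 6 had also been called higher at SAH 1d. In that fit, the estimates of Tsc22d3, Fkbp5 and Klf9 were above 0 while those of the 4 chaperones named were below 0.

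**Figure D4:**
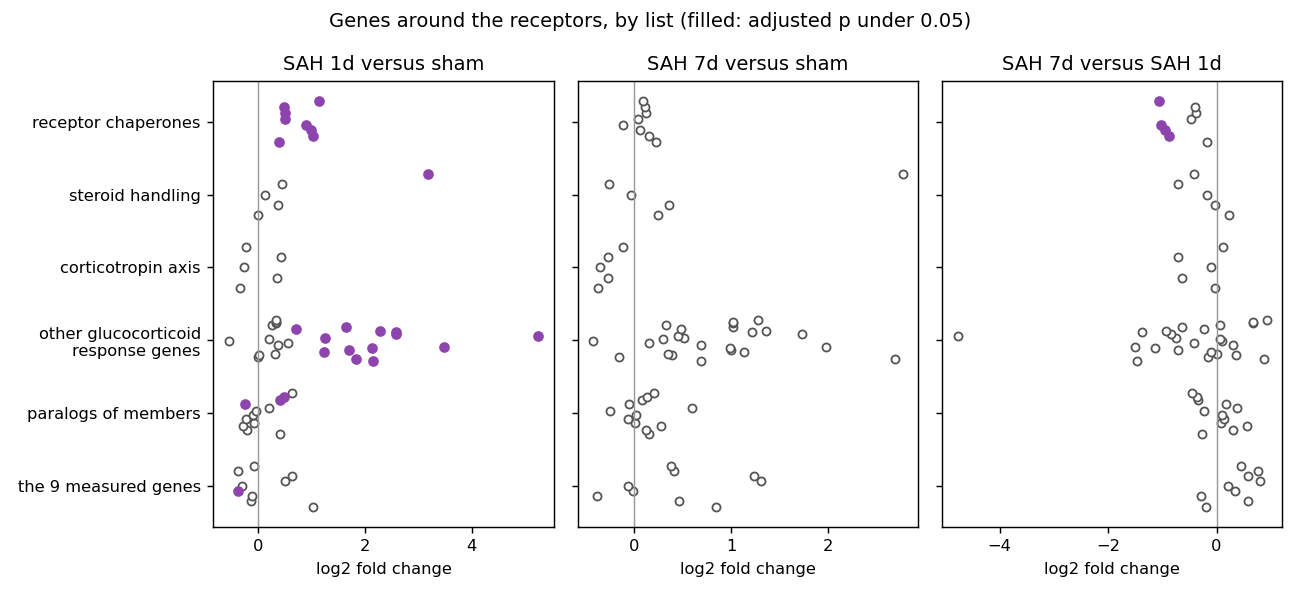
Log2 fold change (horizontal axis) of the tested genes of 5 lists around the receptors, and of the 9 measured genes, in the 3 comparisons. Each point is a gene and filled points have an adjusted p under 0.05: at SAH 1d all 8 chaperones, 13 of 24 other response genes, Tspo, 3 paralogs and Klf9, between the SAH times 4 chaperones, and none at SAH 7d against sham.

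Pairs of the genes were compared between rats of the same group. After the mean of each group was removed from log2 CPM, 27 of the 36 pairs of genes had a Pearson r above 0 over the 18 libraries, with a median of 0.34, beside 50% of all pairs of tested genes. Without SAH 7d-5 and SAH 1d-3, 34 of 36 were above 0 and the median was 0.49, beside 49.8% of all pairs. The values of a library share its depth and tissue, so these correlations are descriptions. The closest pair was Sgk1 and Pdk4, with r = 0.79 and Spearman rho = 0.80 over 18 libraries and 0.88 and 0.92 over 16. Fkbp5 and Zbtb16 had r = 0.69 and rho = 0.56 over 18 libraries, and 0.85 and 0.82 over 16. Tsc22d3 and Pdk4 had r = 0.52 and rho = 0.58 over 18, and 0.86 and 0.85 over 16. Nr3c2 and Errfi1 had r = -0.79 and rho = -0.45 over 18 libraries, but -0.21 and -0.13 over 16, so that relation rests on the 2 libraries left out.

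Single rats stood out in several genes at once. Sham-3 was the highest sham library for Fkbp5, Tsc22d3, Zbtb16, Hsd11b1, Errfi1 and Klf9. SAH 7d-3 was the highest SAH 7d library for Nr3c2, Fkbp5, Tsc22d3, Zbtb16, Klf9 and Pdk4, and its Zbtb16 value of 22.8 CPM was the highest of all libraries. SAH 7d-6 was the lowest SAH 7d library for Tsc22d3, Sgk1, Hsd11b1, Errfi1 and Pdk4.

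Other genes were ranked by the same correlation over 18 libraries, and the 3 most alike are named for each gene with r over 18 and then over 16 libraries. For Tsc22d3 they were the chaperone gene Dnajb1 (0.88 and 0.83), the clock gene Per2 (0.86 and 0.83) and Arrdc2 (0.85 and 0.79). For Fkbp5 they were Mrtfa (0.84 and 0.86), Wwc3 (0.84 and 0.88) and Map3k4 (0.81 and 0.79). For Klf9 they were Mybph (0.96 and 0.90), Cacnb4 (0.93 and 0.81) and Hivep2 (0.93 and 0.80). Per2 and Arrdc2 are themselves known to respond to glucocorticoids, and Arrdc2 is on the list of other response genes. Dnajb1 varied with Tsc22d3 within groups although its group difference between the SAH times had the other sign.

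For Sgk1 the most alike were Gxylt2 (0.89 and 0.83), Bcl2l1 (0.86 and 0.79) and Cd163 (0.83 and 0.78), a macrophage scavenger receptor gene that glucocorticoids induce. For Errfi1 they were Irak2 (0.94 and 0.86), Jun (0.94 and 0.88) and Nfil3 (0.92 and 0.82). For Pdk4 they were Trarg1 (0.85 and 0.85), Tmem252 (0.84 and 0.84) and Ppef2 (0.83 and 0.92). Trarg1 was also first for Hsd11b1 (0.86 and 0.88), followed by Htra1 (0.82 and 0.82) and Dhrs4 (0.77 and 0.73). For Zbtb16 they were Cds1 (0.86 and 0.82), AABR07034767.1 (0.85 and 0.81) and Srrm4 (0.85 and 0.86). For Nr3c2 they were Prr36 (0.98 and 0.82), Myo5b (0.98 and 0.79) and Mpp2 (0.98 and 0.78), whose r fell the most without SAH 7d-5 and SAH 1d-3. Many ranks changed over 16 libraries. Dnajb1, Per2 and Arrdc2 were then at ranks 11, 14 and 30 for Tsc22d3. Cacnb4 and Hivep2 were at 40 and 42 for Klf9, and Dhrs4 at 49 for Hsd11b1. Wwc3 for Fkbp5, Trarg1 for Hsd11b1 and Ppef2 for Pdk4 were at rank 1.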

How the data were processed

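RNA of 18 cortex samples was sequenced by the study on an Illumina platform from libraries made with a kit that keeps no strand, so reads of antisense partners cannot be told apart. The deposited tables were counts, whole numbers per gene and library without normalization, and FPKM, which the authors scaled to transcript length and mapped reads. The study's methods name the rat genome Rnor_6.0, while the submitters' processing notes list fastp, HISAT2, DESeq2 1.16.1 and the mouse build mm9; the identifiers are rat Ensembl ones. The counting program is not given in the sources used here. Groups and replicate numbers were taken from the descriptions of the libraries, and no 2 libraries had identical counts.

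Counts were tested with edgeR 4.0.16 in R 4.3.3 (filterByExpr over the 18 libraries, TMM, quasi-likelihood F test, two-sided) on the 12 libraries of each comparison, with Benjamini-Hochberg adjustment over the 18444 genes kept. These include 3100 loci without a symbol. "Rose", "fell" and "called" mean an adjusted p under 0.05. The SE is the size of the log2 fold change divided by the root of F. The scripts were tested on simulated data. The spread between rats sets the precision, at 27270026 to 38271014 counts per library.

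The alternatives were DESeq2 size factors, the DESeq2 1.42.0 Wald test, limma 3.58.1 voom with sample weights, the robust fit, 1 fit of all 18 libraries, no filter, at least 10 counts in every library, limma on log2(FPKM + 1) and log2(FPKM + 0.1) with a mean FPKM of at least 0.5 or with no filter, the replicate number as a block, each library left out, and SAH 7d-5 and SAH 1d-3 both left out. The counts of the chaperone, response gene, steroid handling and corticotropin lists without those 2 libraries were added after seeing the data. Likeness was ranked on log2 CPM (prior count 2) with group means removed. The 10 genes and all lists were chosen with earlier results of these data known. Named are these genes and, from each list, up to 4 genes called at SAH 1d by size of change, paralogs, up to 2 called between the SAH times, and the 3 most alike genes. Anxa1, Mt2A, Angptl4, Cebpb, Crh, Crhbp, Pomc and the list members that did not pass were named beside this rule after their values were seen. Pecam1, Ccr2 and Trbc1 were not found by symbol, and Hsd11b2, Cyp11a1, Mc2r, S100a8, Cd3d and Cd3g were under the filter. The coregulator list is not reported here. Figures and correlations were made with Python 3.11.15, pandas 2.3.3, scipy 1.17.1 and matplotlib 3.10.9.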

Additional observations from a re-analysis of the deposited data

Results flagged for a closer look

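Among the 27 sets of 6 libraries formed by 9 genes and 3 groups, 2 held a library far from the other 5 by Dixon's criterion, and chance would mark about 1 in 20 sets. Both were in Nr3c2. In the SAH 1d group, SAH 1d-3 had 4.51 CPM while the other libraries had 10.2 to 13.2, a gap of 0.761 of the whole range against a critical value of 0.625. In the SAH 7d group, SAH 7d-5 had 6.99 CPM while the others had 11.6 to 14.97, a gap of 0.668 of the range. These libraries also had the lowest summed neuronal markers of their groups, 1919 and 922 FPKM, and the highest summed monocyte and macrophage markers, 466 and 6646 FPKM. The part of tissue make-up in the Nr3c2 values was not tested.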

How the results depend on the processing

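With 6 rats per group, differences of the size of Klf9 at SAH 1d are near the limit of these tests. At SAH 1d, the number of the 9 genes called was 2 by the DESeq2 Wald test and 0 in the fit of all 18 libraries and with limma on log2(FPKM + 1) without a filter, and it ran from 0 to 2 with a library left out. All genes called fell to 2462 in the fit of all 18 libraries and ran from 3517 to 5252 with a library left out. At SAH 7d against sham, the DESeq2 Wald test called 2 of the 9 genes, Sgk1 and Errfi1, and 459 of all genes, voom called 2 genes and the fit of all 18 libraries 9, and with a library left out the calls ran from 0 to 3 of all genes and were 0 of the 9. Between the SAH times, 3 of the 9 genes were called by voom and without SAH 7d-5 and SAH 1d-3, 2 by the DESeq2 Wald test and 1 in the fit of all 18 libraries, and from 0 to 1 with a library left out. All genes called between the SAH times numbered 252, against 1012 by DESeq2, 2718 by voom, 779 in the fit of all 18 libraries, 414, 420 and 393 by limma on log2(FPKM + 1), log2(FPKM + 0.1) and log2(FPKM + 1) without a filter, 2512 without SAH 7d-5 and SAH 1d-3, and 102 to 1545 with a library left out, the highest without SAH 7d-5. Without SAH 7d-5 and SAH 1d-3, 7 of 8 chaperones and 6 of 24 other response genes were called lower between the SAH times. So were 2 of 5 genes of steroid handling, beside 7.49% of all genes called lower in that fit. Of 5 genes of the corticotropin axis, 2 were called higher between the SAH times, beside 6.13% of all genes. At SAH 1d, 2 of these 5 were called lower, beside 13% of all genes. The cause of these differences was not tested.

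Signs turned for genes whose intervals included 0. At SAH 1d, the log2 fold changes of Fkbp5, Zbtb16 and Hsd11b1 were 0.0059, 0.0661 and 0.0202 on log2(FPKM + 1), with the same values without a filter, and 0.0074, 0.101 and 0.0207 on log2(FPKM + 0.1). With a library left out, Fkbp5 ran from -0.21 to 0.0225 and Zbtb16 from -0.23 to 0.20. At SAH 7d against sham, Nr3c2 was 0.0160 by voom and 0.0564 without SAH 7d-5, running from -0.13 to 0.0564 with a library left out, and Klf9 was 0.12 and 0.14, running from -0.11 to 0.14. Between the SAH times, Errfi1 was 0.23 by voom, 0.0371 with the replicate block and 0.0827 without SAH 7d-5 and SAH 1d-3, running from -0.44 to 0.32 with a library left out. The median likeness of 0.86 was the same size under both of its alternatives, although many ranks changed over 16 libraries.

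Same-numbered libraries did not deviate together, with correlations of deviations from the group means between -0.29 and 0.24, and a library was most like its own number in 0, 2 and 2 of 12 cases, so the numbers were not taken to pair the rats. With the replicate number as a block, Sgk1 was called at SAH 1d (adjusted p = 0.0396 by edgeR) and Klf9 was not (0.0512), so 1 of the 9 genes was called as before. The block called 3979 of all genes at SAH 1d, 0 at SAH 7d against sham and 29 between the SAH times.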
